A study of Drosophila melanogaster with 2 samples.

Results

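Of the 6415 reproducible MESR4 summits in fly embryos, 272 lay more than 2000 bp from every annotated transcription start site (TSS), or 4.24% (Clopper-Pearson 95% interval 3.76 to 4.76). A summit is the base of highest enrichment that the authors' peak caller marked in a bound region. These distal summits were chosen by position alone from the thresholded list, on arms 2L, 2R, 3L, 3R, 4 and X. TSSs were those of every gene, coding or not, in Ensembl release 115, with transposable elements left out. Another 5825 summits lay within 500 bp of a TSS and are called promoter summits here, and 318 lay 501 to 2000 bp away.

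The data came from chromatin immunoprecipitation followed by sequencing (ChIP-seq), which recovers the DNA that a protein occupies. There was 1 group with 2 biological replicates, numbered 1 and 3, of a transgenic fly line that stably expresses MESR4 fused at its C terminus to green fluorescent protein (GFP). The material was whole embryos of both sexes, 0 to 24 h old, with chromatin sonicated to fragments of 200 to 800 bp. Free text in the labels calls both samples input controls, whereas the antibody label names MESR4 and the deposited listing gives peak calls that used another alignment as control. Both samples were therefore read as immunoprecipitates. No source used here names the antibody that bound the fusion protein, and embryos without the fusion were not analysed here. In whole embryos, strong occupancy in few cells and weak occupancy in many cannot be told apart. The replicates are 2 biosamples of the same line.

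MESR4 is a nuclear protein of Drosophila with zinc fingers and a PHD finger, a domain that in other proteins reads histone tails, and it was first found in a genetic screen for modifiers of Ras signalling. Sequence far from a TSS holds enhancers, which activate a promoter from a distance, as well as insulators and silencers. In flies many enhancers lie in long introns of developmental genes. A ChIP-seq summit does not show that a site has any of these activities.

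Sequences of 10 distal summits show what lies under the stronger ones and under the 2 genes with most distal summits on X. All come from the release 6 genome (dm6, RefSeq assembly), plus strand, 5′ to 3′, 50 bp on each side of the summit. Capitals mark matches, on either strand, to any of the 21 motifs searched and described further on. Tlk (chrX:3742157-3742257) and Pp2C1 (chrX:4684499-4684599) hold the strongest distal summits on X.
Tlk: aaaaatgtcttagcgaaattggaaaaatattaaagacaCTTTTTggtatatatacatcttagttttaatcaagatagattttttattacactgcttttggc
Pp2C1: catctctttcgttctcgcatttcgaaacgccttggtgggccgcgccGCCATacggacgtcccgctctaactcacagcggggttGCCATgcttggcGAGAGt
The Raf summits follow in order along the gene, at chrX:2297669-2297769, chrX:2299132-2299232, chrX:2300625-2300725, chrX:2302258-2302358 and chrX:2303993-2304093.
Raf 1: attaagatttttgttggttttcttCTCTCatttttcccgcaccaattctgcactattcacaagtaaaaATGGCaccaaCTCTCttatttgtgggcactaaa
Raf 2: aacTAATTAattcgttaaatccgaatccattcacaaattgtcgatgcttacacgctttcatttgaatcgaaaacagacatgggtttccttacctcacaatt
Raf 3: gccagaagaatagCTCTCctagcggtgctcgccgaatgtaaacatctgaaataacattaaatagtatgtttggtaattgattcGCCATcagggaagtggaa
Raf 4: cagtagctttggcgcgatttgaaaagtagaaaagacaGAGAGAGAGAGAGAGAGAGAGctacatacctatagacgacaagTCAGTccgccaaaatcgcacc
Raf 5: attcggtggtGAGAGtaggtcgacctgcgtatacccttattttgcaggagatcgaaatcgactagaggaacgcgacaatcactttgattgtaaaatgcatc
The intronic summits of Hr4 were at chrX:1947695-1947795, chrX:1951847-1951947 and chrX:1963872-1963972.
Hr4 1: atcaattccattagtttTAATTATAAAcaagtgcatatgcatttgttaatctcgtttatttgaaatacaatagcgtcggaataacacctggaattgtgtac
Hr4 2: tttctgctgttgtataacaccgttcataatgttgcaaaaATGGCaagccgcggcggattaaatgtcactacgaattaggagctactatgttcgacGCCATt
Hr4 3: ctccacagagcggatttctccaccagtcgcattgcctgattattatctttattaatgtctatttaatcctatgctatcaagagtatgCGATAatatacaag
Matches differed from one of these summits to the next. The GAGA letters GAGAG, bound by GAGA factor, occurred within 50 bp of Raf 1, 3, 4 and 5 and of Pp2C1, but not of Raf 2, Tlk or the 3 Hr4 summits. The Pho core GCCAT, the letters at the heart of sites of the Polycomb recruiter Pleiohomeotic, occurred at Pp2C1, Raf 1, Raf 3 and Hr4 2. A match is a description of the letters and not evidence that the factor binds.

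The distal summits were few for the sequence open to them. Bases more than 2000 bp from a TSS made up 62.2% of the 6 arms, or 83.1 of 133.6 Mb without N bases, and held 3.27 thresholded summits per Mb. The 6 arms as a whole held 48.0 per Mb. Distances ran from 2002 to 39920 bp with a median of 4157 bp, and 100 summits lay more than 5000 bp from a TSS, 38 more than 10000 bp and 9 more than 20000 bp. Density fell with distance, from 5.74 summits per Mb at 2000 to 5000 bp to 2.89 at 5000 to 10000 bp, 1.96 at 10000 to 20000 bp and 0.533 beyond. By arm, distal summits were 5.38% of the thresholded summits on X (60), 5.19% on 4 (4), 4.88% on 3L (61), 4.58% on 2L (53), 3.64% on 2R (47) and 3.08% on 3R (47). The ends of this order, X and 3R, had intervals of 4.13 to 6.87 and 2.27 to 4.07, and those of neighbours overlap. These ends were picked after the values were seen, and differences between arms were not tested. The 4 summits on chromosome 4 leave its interval at 1.43 to 12.8. Per Mb of such bases, distal summits numbered 4.36 on 4, 4.02 on X, 3.84 on 2L, 3.40 on 3L, 3.04 on 2R and 2.34 on 3R. The RefSeq gene starts of the same assembly left all 272 summits more than 2000 bp from a start. Whether those starts are independent of the Ensembl ones was not examined.

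**Figure D1:**
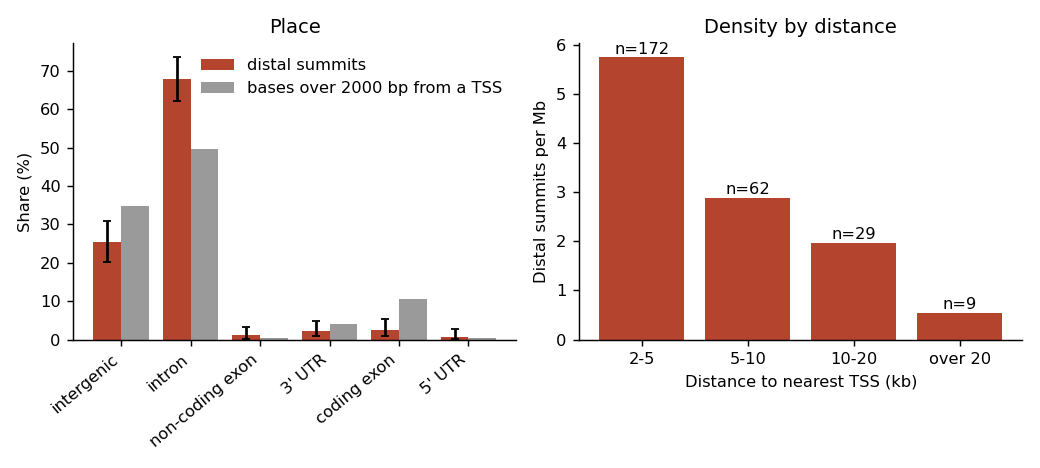
Left, share (%) of the 272 distal summits in each kind of sequence (red, bars of 95% Clopper-Pearson interval) beside the share of all bases more than 2000 bp from a TSS (grey). Introns hold 68.0% of the summits and 49.8% of the bases. Right, distal summits per Mb by distance to the nearest TSS in kb, with the number of summits on each bar, falling from 5.74 to 0.533.

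Most distal summits were in introns. Introns held 185 of the 272 (68.0%, interval 62.1 to 73.5), and they make up 49.8% of the bases as far from a TSS, so that their density was 4.47 summits per Mb. Intergenic sequence held 69 (25.4%, interval 20.3 to 31.0, against 34.7% of the bases) at 2.39 per Mb. Coding exons held 7 (2.57%, interval 1.04 to 5.23, against 10.6% of the bases) at 0.798 per Mb. The coding exon summits were at otp, a homeodomain transcription factor gene, with a signal of 493.2, at Pde1c, a phosphodiesterase gene, with 390.8, at bif with 291.5 and 217.4, at Socs36E with 207.1, at the insulin receptor gene InR with 196.9 and at CG42709 with 184.1. Another 6 summits were in 3′ UTRs, 3 in non-coding exons and 2 in 5′ UTRs, the last at the polarity gene baz and the cell cycle gene E2f1. None of the 272 lay in an annotated transposable element, which cover 8.53% of the distal bases. No source used here says how reads from repeats were handled. Intronic and intergenic summits had like signals, with medians of 232.9 and 232.2.

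Among the 181 intronic summits with a protein-coding host, 117 (64.6%) lay in the first intron of at least 1 transcript and 69 (38.1%) in the first intron of every transcript that has an intron there. Of the 40.1 Mb of coding-gene introns as far from a TSS, the same held for 36.4% and 21.7% of the bases. These shares of bases were not matched for distance to a TSS, with which summit density fell, and the difference was not tested. The introns had a median length of 12520 bp and a range of 756 to 110416 bp, against a median of 15982 bp over those bases. Of the intergenic summits, 32 were upstream of the gene with the nearest TSS and 37 downstream.

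Signal, the authors' enrichment value on a scale set per list, put summits into the thresholded list, so the following values are descriptions without a test. Distal signals ran from 176.1 to 922.4 with a median of 230.5. The median was 246.8 at the summits 501 to 2000 bp from a TSS and 401.7 at promoter summits, a ratio of 0.574 between distal and promoter summits. Below rank 3207 in signal, the middle of the list, lay 237 distal summits (87.1%), and 2 were among the strongest 641. The distal share grew down the list, from 0.3% of ranks 1 to 1000 to 11.2% of ranks 5001 to 6415. Below the threshold it went on growing in the list made from both replicates together, from 20.03% of ranks 6416 to 10000 to 45.3% of ranks 25001 to 30000. Weaker summits were thus more often distal on both sides of the threshold, and the number called distal depends on where the threshold stands.

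**Figure D2:**
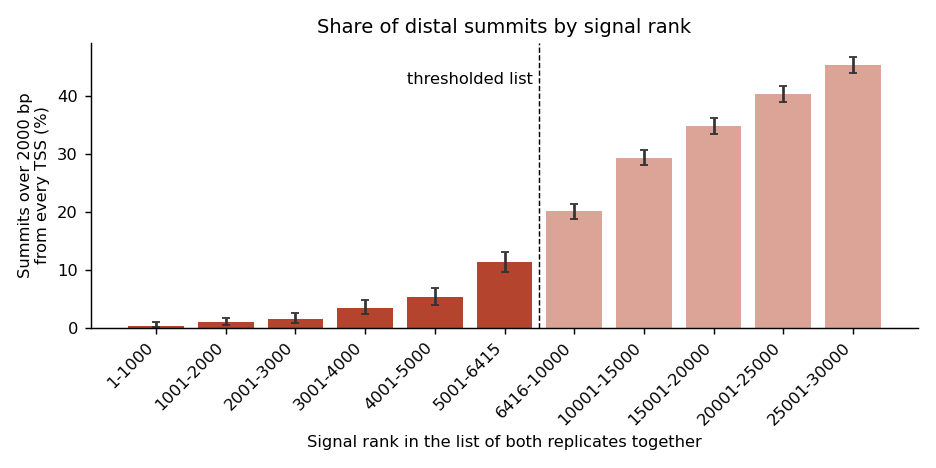
Share (%) of summits more than 2000 bp from every TSS, by signal rank in the list of both replicates together, with 95% Clopper-Pearson intervals. Dark bars are the thresholded list, whose distal share rises from 0.3% to 11.2%, and light bars are weaker summits outside it, which reach 45.3%.

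Distal regions were narrower and lay farther from other summits than promoter regions. Their median width was 225 bp (range 111 to 999) against 271 bp for the summits 501 to 2000 bp from a TSS and 553 bp for promoter summits. A region was shared with another summit for 12 distal summits (4.41%), 12.3% of those 501 to 2000 bp away and 33.4% of promoter summits. The next thresholded summit lay a median of 5150.5 bp away, against 1539 and 1036 bp in these other sets. The G+C content of the 201 bp around distal summits had a median of 36.8%, against 41.3% in the flanks 500 bp away, 41.8% over all 409764 such windows of distal sequence, 37.8% at the summits 501 to 2000 bp away and 45.3% at promoter summits. It was below that of the summit's own flank at 168 of the 272.

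Both the signal and the list come from the 2 replicates together, so support in each replicate is partly fixed for the strongest summits. In the 20 of highest signal, signals ranged from 467.5 to 922.4, and the regions of all 20 met one of the 6415 strongest summits of each replicate, and the nearest replicate summits ranked 2917 or better in replicate 1 and 4944 or better in replicate 3. The strongest of all was intergenic, on 2R at 13035334, 11922 bp from the TSS of CG13323. Its signal was 922.4, with 664.9 in replicate 1 (rank 456) and 259.6 in replicate 3 (rank 717). Replicate signals come from lists with scales of their own, so ranks and not signals are compared between replicates.

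The second strongest was in an intron of sbb, which encodes the corepressor Brakeless (FBgn0285917, 2R, 18278198 to 18357296, minus strand). It lay at 18337185, 20111 bp from the nearest TSS, with a signal of 907.2 and ranks of 933 in replicate 1 and 178 in replicate 3. These 2 summits alone were among the strongest 641 of the list. An intergenic summit 3334 bp from the TSS of CycB, the mitotic cyclin B gene, and on its downstream side, followed with 731.1 (ranks 667 and 2739).

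The next strongest in genes were all on X. Tlk, the gene for a chromatin-linked kinase (FBgn0283657, X, 3720007 to 3789770, plus strand), had an intronic summit at 3742207 with a signal of 713.6 and ranks of 786 in replicate 1 and 1977 in replicate 3. Pp2C1, a protein phosphatase gene (FBgn0022768, X, 4679988 to 4686903, minus strand), had one at 4684549 with 698.0 and ranks of 1012 and 1920. Raf, the kinase that Ras activates, had one at 2297719 with 623.6 and ranks of 1338 and 1838. All 3 lay 2253 to 2354 bp from a TSS, close to the distance limit.

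The other 14 of the 20 included summits at genes of transcription and chromatin factors and of signalling. Hr4, an ecdysone-responsive nuclear receptor gene, had summits of 593.1 and 473.1. Gug, the gene of the corepressor Atrophin, had one of 569.2, and trx, the gene of the histone methyltransferase Trithorax, one of 558.8. The trx summit ranked 1240 in replicate 1 and 4944 in replicate 3, the widest gap in rank among the 20. Signalling genes among them were fz, which encodes a Wnt receptor (486.8, in an intron and 22188 bp from a TSS), aos, which encodes a secreted inhibitor of the EGF receptor (473.1, where CG33158 also spans the summit and has a promoter summit of 405.7), and S, which encodes Star, a carrier of EGF receptor ligands (467.5). The otp exon summit (493.2) and intronic summits of CG12769 (592.2), CG32486 (489.5) and CG46321 (489.7) also belonged here. The CG46321 intron also lies within Hr3, another nuclear receptor gene of the ecdysone response, and within CG12912, so its host is not settled by position. The intergenic ones had CG43131 (648.3), CG31668 (585.6) and CG41128 (479.8) nearest.

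The 5 summits farthest from a TSS spanned signals of 226.8 to 486.8. The most remote were a pair on 3R at 3790084 and 3790283, 39721 and 39920 bp from the TSS of CG41128, with signals of 479.8 and 226.8. Both lay in the same region, which was found among the strongest of each replicate, so their support is not separate. The next were in introns of CG42238 (25258 bp, 236.0), of NetA, which encodes a Netrin axon guidance cue (25006 bp, 230.0), and of fz. At the distance limit, the 5 summits just inside were nearest to CG12290 (2002 bp, signal 234.1), pot (2016 bp, 195.2), be (2018 bp, 204.4), the locus FBtr0304469_df_nrg (2038 bp, 330.4) and Teh1 (2038 bp, 232.5). Of the 5 just outside, 4 were nearest to CG4218 (1993 bp, 285.1), CG9205 (1977 bp, 179.6), cno (1941 bp, 564.8) and Atf3 (1940 bp, 238.7).

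Replicate support was uneven. A region counted as found in a replicate when it overlapped, by 1 bp or more, a region holding one of the 6415 strongest summits there. For distal summits this held for 226 in replicate 1 (83.1%, interval 78.1 to 87.3), where 95% of all thresholded summits were found, and for 172 in replicate 3 (63.2%, interval 57.2 to 69.0), where 93.4% were. In both replicates 132 were found (48.5%, interval 42.5 to 54.6), against 88.7% of all thresholded summits, 62.0% of those 501 to 2000 bp from a TSS and 92.1% of promoter summits. Another 94 were found in replicate 1 alone, 40 in replicate 3 alone and 6 in neither. The whole replicate lists of 30000 summits met all 272 in replicate 1 and 266 in replicate 3. The 6 that met none in replicate 3 were at Cals (322.8), simj (268.4), Eip75B (244.8), Fas3 (211.6), ken (197.4) and dls (179.7), named after their values were seen. By signal, which both replicates set, the shares differed, with 109 of the stronger 136 distal summits found in both replicates (80.1%) and 23 of the weaker 136 (16.9%). By distance the shares were alike, with 49 of 100 summits more than 5000 bp from a TSS and 83 of the 172 nearer ones (48.3%) found in both.

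**Figure D3:**
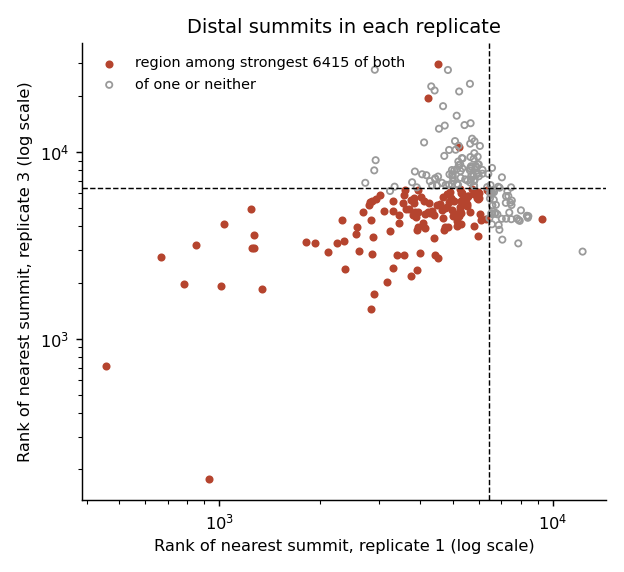
Rank of the nearest summit in replicate 1 (x axis, log scale) and replicate 3 (y axis, log scale) for the 268 distal summits with one within 500 bp in each. Filled points are the 132 whose regions were found among the strongest 6415 of both replicates, open points are the others and dashed lines mark rank 6415. The upper left quadrant, strong in replicate 1 and weaker in replicate 3, holds more open points than the lower right.

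At like ranks, distal summits were still found in both replicates less often than promoter summits. Between ranks 4101 and 5891, which hold the middle 136 distal summits, 66 of them (48.5%) and 84.3% of 1506 promoter summits were found in both. Distal regions there were narrower, with medians of 220.5 and 406 bp, and a wide region meets others more easily. With a summit of each replicate's strongest within 100 bp as the rule, the shares were 42.6% and 52.5%. Among regions with 1 summit they were 46.5% and 75.7%. Signals of the replicates were less alike at distal summits (Spearman 0.256, Pearson 0.315 on log10 signal, 268 summits) than at promoter summits (0.718 and 0.665, 5822 summits). These correlations are across summits of the same libraries, and the range of signal is narrower at distal summits.

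Gene bodies held 203 of the 272 distal summits, protein-coding ones 196, and these belonged to 157 protein-coding genes of the 5528 that have sequence far enough from every TSS (2.84%). Host genes had a median length of 29034 bp, against 6386 bp for the 5528, and a longer gene holds more far sequence. Of the hosts, 126 held 1 distal summit, 23 held 2 and 8 held 3 or more. A promoter summit was present at 109 of the 157 hosts (69.4%, interval 61.6 to 76.5), against 49.2% of the 5528. Because of the difference in length, density per Mb of far sequence was also compared. Genes with a promoter summit held 143 distal summits at 7.53 per Mb and genes without one 59 at 1.62 per Mb, with a summit in overlapping genes counted for each. The order was the same among genes with under 10000 bp of far sequence (6.02 and 2.11 per Mb), with 10000 to 30000 bp (11.1 and 2.03) and with more (6.28 and 1.36), and in neither set was density highest in the genes with most far sequence.

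Raf held 5 distal summits, as many as any gene. All 5 lay in a single intron of 43637 bp (FBgn0003079, X, 2295466 to 2343870, plus strand), spaced 1463, 1493, 1633 and 1735 bp apart. From the 5′ end of the gene onward their signals were 623.6, 251.7, 393.0, 205.2 and 256.0. In replicate 1 they were 449.6, 186.8, 292.4, 153.5 and 202.3, and in replicate 3 they were 176.6, 54.6, 114.5, 44.0 and 50.1. The first and the third were the highest and the fourth was the lowest in both replicates. Those 2 were found among the strongest 6415 of both replicates and the other 3 in replicate 1 alone. Raf also had promoter summits, with signals of 701.7 and 326.6, at an internal TSS 44.8 kb from the 5′ end of the gene. The TSS at the 5′ end, nearest to all 5 distal summits, had none.

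The sbb gene also held 5, of which 4 fell within 1 cluster 18778 to 23927 bp from the gene's 5′ end. Their signals along the arm were 253.6, 203.2, 907.2 and 339.1, and the fifth, 3074 bp from the 5′ end, had 196.1. The summits of 203.2, 907.2 and 339.1 were found among the strongest of both replicates, the others in replicate 1 alone. Hr4 (FBgn0264562, X, 1941940 to 2007956, plus strand) held 4, with signals of 473.1, 593.1, 286.7 and 208.7 from its 5′ end, and no promoter summit. The first 3 were found in both replicates and the last, in a 3′ UTR, in replicate 3 alone. Eip75B, an ecdysone-induced nuclear receptor gene (FBgn0000568, 3L, 17950953 to 18064696, minus strand), held 4 weak ones of 176.2 to 268.5, of which 1 was found in both replicates, and a promoter summit of 239.2.

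**Figure D4:**
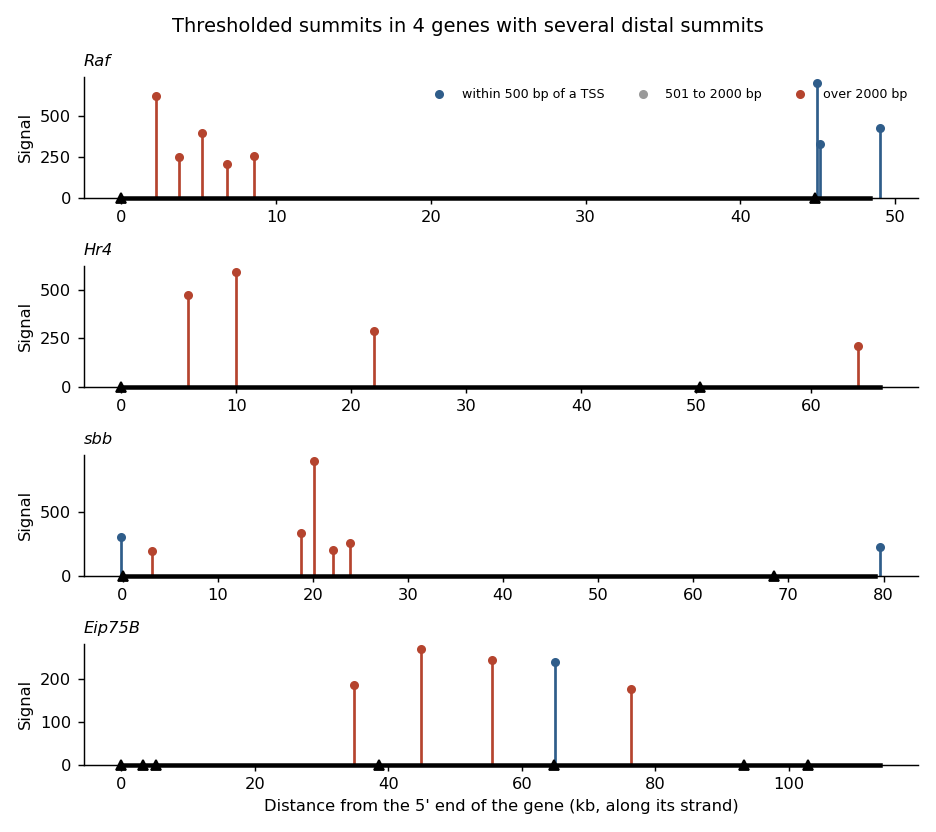
Thresholded summits in and beside Raf, Hr4, sbb and Eip75B, by distance from the 5′ end of the gene (x axis, kb) and signal (y axis). Red stems are distal summits and blue stems promoter summits of any gene, thick bars are the genes and triangles their annotated TSSs. Hr4 has red stems alone, and in Raf the 5 red stems lie in the first 10 kb.

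The other 4 genes with 3 distal summits were ush, shn, apt and simj. In ush, which encodes a cofactor of GATA factors, signals were 389.1, 202.7 and 255.4. In shn, a zinc finger gene of Dpp signalling, they were 213.0, 178.5 and 223.2. In apt, a transcription factor gene, they were 301.5, 284.1 and 242.9. In simj, which encodes a subunit of the NuRD chromatin complex, they were 321.3, 268.4 and 230.1, the last pair only 214 bp apart. The highest signal in these 4 genes, 389.1, was below the highest in Raf, sbb and Hr4. All 3 apt summits were found among the strongest of both replicates, and 1 each of the 3 in ush, shn and simj.

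Hosts were then counted in gene lists, beside the 2.84% and 3.65 summits per Mb over all protein-coding genes with far sequence. The counts per list are small and stand without a test. Ecdysone response genes hosted distal summits in 4 of 18 cases (22.2%, 10 summits, 14.9 per Mb), at Hr4, Hr3, Eip75B and Eip63E, which encodes a cyclin-dependent kinase (221.8, found in replicate 1 alone). Hr4 and Eip75B held 4 of these summits each, and Hr3 counts only through the CG46321 intron summit, whose host is not settled. Ras, EGFR and FGFR signalling genes hosted distal summits in 5 of 35 (14.3%, 9 summits, 5 of them in Raf, 16.6 per Mb). Besides Raf these were aos, the ETS factor genes aop (291.5) and pnt (291.3), which encode a repressor and an activator downstream of Ras, and vn, which encodes an EGF receptor ligand (271.4). Each of these last 4 had a summit found in both replicates and no promoter summit, so Raf was the 1 host of the 5 with a promoter summit, at its internal TSS. Star was not among the genes of this list.

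Wnt, Hedgehog and Dpp signalling genes hosted distal summits in 6 of 32 cases (18.75%, 9 summits, 16.2 per Mb). The hosts were fz, shn, the glypican gene dlp (357.3), the Dpp antagonist genes Dad (308.2 and 194.1) and sog (221.1), and the Wnt antagonist gene nkd (179.0). Neither Dad summit nor the sog or nkd summit was found in both replicates. Notch signalling genes did in 2 of 14 (12.5 per Mb), the receptor gene N (314.2, found in both) and mam, which encodes its coactivator Mastermind (265.2 and 185.2, neither found in both). JAK/STAT, Hippo and Toll genes did in 2 of 24 (11.8 per Mb), the suppressor gene Socs36E (213.5 and 207.1) and ex, an upstream gene of the Hippo pathway (250.5).

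In the other lists reported the density was nearer to that of all genes or the count was 0 to 2. Axon guidance and cell adhesion genes, which are very long, hosted distal summits in 7 of 41 cases (17.1%) but at 3.92 per Mb. They were Fas3 (211.6), NetA (230.0 and 177.3), Sema1a (197.5), caps (194.5), fra (205.5), kirre (278.8, and 193.8 where CG32795 lies within it) and sli (197.7), and none of these 9 summits was found in both replicates. Polycomb and Trithorax group genes did in 2 of 29 (5.49 per Mb), trx and jing (187.0). Segmentation genes had nkd alone of 23, neural fate genes grh alone of 22 (263.1) and mesoderm genes how alone of 22 (192.6), at 7.27, 2.32 and 4.12 per Mb. None of the 8 Hox genes, 11 insulator protein genes or 4 ribosomal protein genes with far sequence hosted a distal summit. These lists have 0.263, 0.075 and 0.0017 Mb of far sequence, in that order, and nothing is read from their counts of 0.

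Motif letters at distal summits were compared with those beside them. Each of 21 motifs was searched on both strands in 201 bp around the summit and in a flank of equal width centred 500 bp away. None of the 21 (0%) passed the exact McNemar test after Benjamini-Hochberg adjustment, 1 had an unadjusted exact p under 0.05, and the lowest adjusted exact p was 0.415. For the Motif 1, DRE, Zelda, Grainyhead, CTCF and su(Hw) letters, too few summits differed from their flank for this test to reach 0.05 before adjustment. The Ohler motif 7 letters were in 3 summit windows alone and 5 flanks alone, too few to pass after adjustment. The su(Hw) letters were in 5 summit windows and 0 flanks, and even that gave an unadjusted exact McNemar p of 0.0625. For these motifs, Ohler motif 7 included, the test cannot decide. The BEAF-32 letters CGATA, which the DRE contains, were in 26.1% of summit windows and 19.5% of flanks. The A tract AAAAAAAA was in 9.56% and 16.5%, and the GAGA element in 33.1% and 29.0%. Within 50 bp of the summit the A tract (2.21% against 10.3%, adjusted exact McNemar p = 0.0041) and the pyrimidine tract CTTTTT (12.1% against 22.1%, adjusted exact p = 0.0378) passed, both lower at summits.

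**Figure D5:**
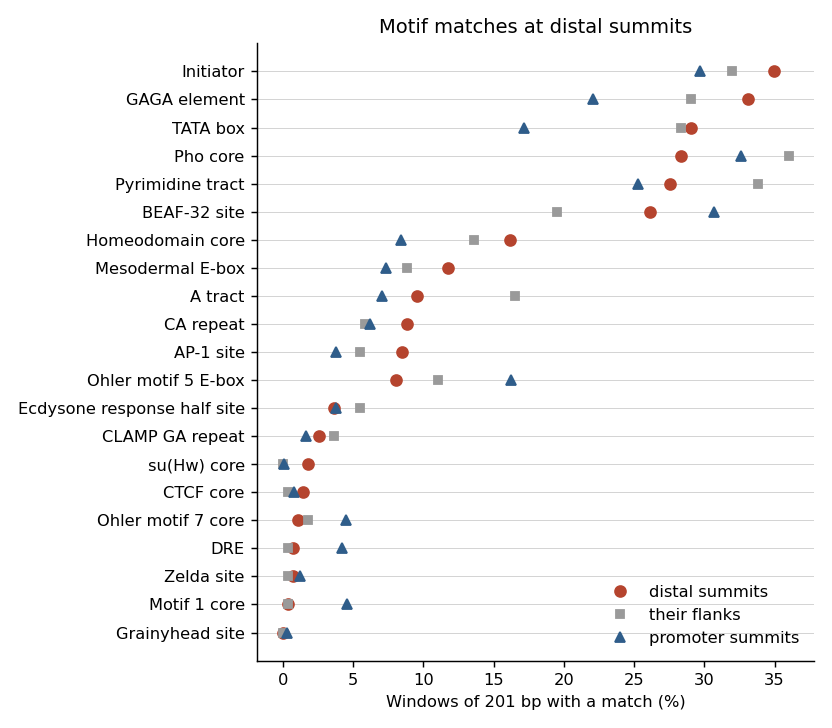
Share (%) of 201 bp windows with at least 1 match to each of 21 motifs, at the 272 distal summits (red circles), their flanks (grey squares) and the 5825 promoter summits (blue triangles). Circles and squares lie close for most motifs, and triangles lie apart for the TATA box, Motif 1 and DRE among others.

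Compared with promoter summits, 10 of the 21 motifs (47.6%) passed Fisher's exact test at adjusted p under 0.05. The core promoter letters Motif 1 (GGTCACACT, bound by M1BP) were at 0.368% of distal and 4.55% of promoter summits (adjusted exact p = 0.000428), and the DNA replication-related element (DRE, TATCGATA) at 0.735% and 4.24% (adjusted exact p = 0.00381). Ohler motif 5 (CAGCTG) was at 8.09% and 16.2%, and Ohler motif 7 (CATCNCTA) at 1.10% and 4.53% (adjusted exact p = 0.000589 and 0.00817). All distal windows of this width held these motifs in 0.0925%, 0.42%, 7.71% and 1.24%, so that DRE and both Ohler motifs were at distal summits about as often as in distal sequence at large. All 4 calls held when both sets were limited to windows of 30 to 40% G+C, 157 distal and 1325 promoter summits. Within 50 bp of the summit Ohler motif 5 alone kept its call, and Motif 1, DRE and Ohler motif 7 had adjusted exact p of 0.167, 0.0775 and 0.136. With the letters first written for it, Ohler motif 7 lost its call (adjusted exact p = 0.741).

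Of the 6 motifs more frequent at distal summits, the GAGA element alone kept its call in windows of like G+C. It was at 33.1% of distal and 22.1% of promoter summits (adjusted exact p = 0.000328), and in the windows of like G+C at 31.2% and 17.7% (adjusted exact p = 0.00106), but within 50 bp of the summit at 12.5% and 11.9% (adjusted exact p = 0.855). All distal windows of this width held it in 21.5%. The TATA letters TATAAA were at 29.0% and 17.2% (adjusted exact p = 6.09e-05) and in 22.0% of all distal windows, turning to 31.2% and 32.3% at like G+C. The homeodomain core TAATTA (16.2% against 8.45%, adjusted exact p = 0.000328), the AP-1 site TGANTCA (8.46% against 3.79%, adjusted exact p = 0.00195) and the mesodermal E-box CACATG (11.8% against 7.38%, adjusted exact p = 0.0275) lost their calls at like G+C, with adjusted exact p of 0.822, 0.143 and 0.221. These motifs were in 12.97%, 3.78% and 8.95% of all distal windows. Within 50 bp of the summit, without a limit on G+C, the TATA letters kept their call (18.4% against 8.03%, adjusted exact p = 1.94e-06). So did the homeodomain core (9.56% against 3.95%, adjusted exact p = 0.000482) and the AP-1 site (5.88% against 1.85%, adjusted exact p = 0.000582). The mesodermal E-box did not (4.41% against 3.66%, adjusted exact p = 0.667). Leaving out a replicate here means that the strongest 6415 summits of the other replicate's own list replaced the thresholded list. Without replicate 1 the homeodomain core was at 9.92% against 7.91% and the AP-1 site at 5.34% against 3.84% (adjusted exact p = 0.35 for each), so both calls ended. The mesodermal E-box call ended without replicate 1 (adjusted exact p = 0.34) and without replicate 3 (0.272). At 17 of the 272 distal summits no motif matched.

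The letters of the su(Hw) insulator site were rare and stood at a few distal summits. TGCATACTT was in 5 of 272 summit windows (1.84%), none of the flanks, 0.0858% of promoter windows (5 of 5825, adjusted exact p = 0.000328) and 0.444% of all distal windows. At like G+C the shares were 1.27% and 0.0755% (adjusted exact p = 0.0934), on 2 distal summits. Within 50 bp of the summit, without a limit on G+C, the shares were 1.47% (4 of 272) and 0.0343% (adjusted exact p = 0.000482). Without replicate 3 they were 0.76% (2 of 263) and 0.12%, and the call ended (adjusted exact p = 0.0954), whereas without replicate 1 they were 2.67% (7 of 262) and 0.14%. The 5 summits were in introns of ImpL2 (352.2), which encodes a secreted antagonist of insulin signalling, mam (185.2) and Eip75B (176.2), and in intergenic sequence nearest to Zasp52 (251.8) and CG12617 (179.0). All 5 were found among the strongest 6415 of replicate 3, and mam, CG12617 and Eip75B were not among those of replicate 1. 

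The su(Hw) letters at ImpL2, CG12617 and Eip75B are shown in capitals with 16 bases on each side, at chr3L:4230502-4230542, chr2L:20287457-20287497 and chr3L:17988271-17988311 on the plus strand.
ImpL2: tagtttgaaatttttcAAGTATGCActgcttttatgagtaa
CG12617: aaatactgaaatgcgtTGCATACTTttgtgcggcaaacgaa
Eip75B: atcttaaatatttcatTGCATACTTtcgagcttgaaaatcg
The centre of the core lay 12 bp to the right of the ImpL2 summit, 49 bp to the right of the CG12617 summit and at -33 bp, to the left, of the Eip75B summit.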

How the data were processed

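The deposited files were peak lists in dm6, 1 per replicate, 1 of both replicates together and 1 thresholded by irreproducible discovery rate (IDR), a measure of how well replicate ranks match. Per the deposited listing, calls used a control alignment as background. Aligner, caller, IDR cutoff, antibody and read depth are not given in the sources used here. Intervals cover counting of summits and not read sampling. The deposited signal value per summit was used for description and ranking within a list, and the deposited −log10 q value was read and not used. Summits were region start plus the deposited offset, given from 1 here.

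Distances, places and hosts came from Ensembl 115, and where annotations overlapped, exons went before introns, with a 5′ UTR first and intergenic sequence last. Bases and all 201 bp windows as far from a TSS were counted without random placement. Shares have Clopper-Pearson 95% intervals. Motif tests were exact McNemar and Fisher tests, two-sided, with Benjamini-Hochberg adjustment over 21 motifs at 0.05. Only the McNemar test was tried on simulated windows with planted motifs. Those windows had equal shares of the bases, unlike the real ones. Flanks lay on alternating sides by rank. The CLAMP GA repeat contains the GAGA element, and BEAF-32 letters lie in the DRE. The letters of Ohler motif 7 were corrected after values were seen. Software was Python 3.11.15, numpy 2.4.6, pandas 2.3.3, scipy 1.17.1 and matplotlib 3.10.9.

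Members, gene lists and motifs were chosen with earlier results of these data known. Genes were named as hosts, or the nearest genes, of the 20 strongest summits, of the 5 farthest and of the 5 on each side of the distance limit, as genes with 3 or more distal summits, and as list members that host one. The result of 1 gene list and 1 summit outside the distance limit are not reported here. Of the list symbols, 9 were matched through older names and 3 were not matched. Genes at exonic summits and at su(Hw) letters were named after their values were seen.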

Additional observations from a re-analysis of the deposited data

How the results depend on the processing

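No paired analysis was possible because there was 1 group. The distal share of 4.24% was 6.58% beyond 1000 bp, 1.56% beyond 5000 bp, 5.36% with protein-coding TSSs alone, 1.09% in the stronger 3207 summits and 4.94% with the strongest summit of each region. Single replicates gave 4.08 to 4.10%. For shares, signal ratio and motifs, a single replicate means the strongest 6415 summits of its own list. The length of that list was thus set to that of the thresholded list, and its summits are not the same ones. The intronic share was 59.3% with protein-coding TSSs alone and 63.0 to 69.6% with single replicates, and the signal ratio of 0.574 was 0.516 with the strongest summit of each region and 0.572 to 0.621 with single replicates. The 48.5% found in both replicates was 97.8% with the whole replicate lists, and support in single replicates was 63.2 to 83.1%. Against flanks, 2 motifs passed within 50 bp and none under the other alternatives, with 0 to 5 motifs at an unadjusted exact p under 0.05. Against promoters, 5 passed within 50 bp, 6 at like G+C, 13 beyond 1000 bp and 9 to 11 with single replicates. The 5 within 50 bp were Ohler motif 5, the TATA box, the su(Hw) letters, the AP-1 site and the homeodomain core. BEAF-32 letters, lower at distal summits, were among those passing at like G+C (22.3% against 36.8%, adjusted exact p = 0.00143), without replicate 3 and beyond 1000 bp. CTCF and CA repeat letters were gained without replicate 1, and initiator and Pho letters without replicate 3. Initiator and A tract letters, both higher at distal summits, were gained beyond 1000 bp. The TATA box turned to a difference of -1.09 percentage points at like G+C. Limiting G+C and reading TSSs from RefSeq were chosen after seeing the data, as was trying the first letters of Ohler motif 7, with which 9 motifs passed. The share of hosts with a promoter summit was 65.0 to 70.7% under its alternatives. Read depth is unknown, so how many summits more reads would add cannot be given.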
